A study of Mus musculus with 8 samples.

Results

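Genes of mitochondrial dynamics and of mitochondrial DNA (mtDNA) maintenance were examined in the polysomal (P) and non-polysomal (NP) RNA of mouse oocytes. They were the rows of the FPKM table whose gene symbol was *Mfn1*, *Mfn2*, *Opa1*, *Dnm1l*, *Fis1*, *Mff*, *Tfam*, *Polg*, *Polg2* or *Polrmt*. All 10 symbols were found, among 25574 genes in the table. FPKM stands for fragments per kilobase of gene and of mapped library depth, so it compares genes per length and libraries per depth.

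The oocytes came from CD1 mice of 8 weeks that had received 5 IU of pregnant mare serum gonadotropin 46 h earlier. Fully grown oocytes were held in the germinal vesicle stage with 100 µM IBMX, denuded, and then kept for 180 min in IBMX-free medium, so that they reached nuclear envelope breakdown (NEBD). Cycloheximide at 0.1 mg/mL was then given for a further 10 min, which holds ribosomes on mRNA, and 200 oocytes were lysed per profile. After a sucrose gradient, fractions 2 to 5 were pooled as NP and fractions 6 to 10 as P, with 4 libraries of each. Both datasets therefore share strain, age, hormone, culture and cycloheximide, and differ by the fractions pooled. Each library is a pool of oocytes, the RNA was depleted of rRNA and the cDNA was amplified. Per the study, the profiles were independent biological replicates, and NP and P are pools of fractions of those profiles.

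Mitochondria fuse and divide continuously. Mitofusins (*Mfn1*, *Mfn2*) join outer membranes and *Opa1* joins inner membranes, while the dynamin *Dnm1l* (also called Drp1) cuts mitochondria after it is recruited to their surface by adaptors such as *Mff* and *Fis1*. *Tfam* packages mtDNA and starts its transcription, *Polrmt* transcribes it, and *Polg* with its accessory subunit *Polg2* replicates it. Fully grown oocytes carry a very large store of mtDNA, hardly transcribe nuclear genes, and translate stored mRNAs selectively during maturation. An mRNA loaded with several ribosomes sediments in polysomal fractions, while free mRNA sediments higher in the gradient.

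The number of reads to which each library had been scaled was estimated from the steps between its FPKM values. With annotated exon lengths, 49.2% to 50.6% of the values above 0 in a library then came out as whole reads. The NP libraries had been scaled to 1299377 to 7594637 reads and the P libraries to 2677946 to 4699328 reads, with 11703 to 13753 genes above 0 in NP and 9139 to 11339 in P. One read in a gene with 1 kb of exons was therefore worth 0.132 to 0.770 FPKM in NP and 0.213 to 0.373 FPKM in P. All 12 oocyte markers checked had a mean above 0.1 FPKM in at least 1 dataset, with summed FPKM of 6752 to 13310 in NP and 8904 to 37130 in P. Among them, *Figla* was at 0 in P replicate 2. Of 14 cumulus and granulosa cell markers, 8 had such a mean, with sums of 15.3 to 144 in NP and 20.5 to 64.0 in P. *Nr5a2* had 8.43 to 61.4 FPKM in NP and 0.487 to 35.9 FPKM in P. *Cyp19a1* had 6.07 to 75.2 and 0.190 to 62.6 FPKM, and *Cyp11a1* reached 46.4 FPKM in NP replicate 4. *Foxl2*, *Inhba*, *Has2* and *Amhr2* were at 0 in every library. Blood cell markers summed to 0 to 35.9 FPKM in NP, all of it *Cd68*, and to 0 in P, and *Ptprc* and *Hba-a1* were at 0. Fewer such cells and less RNA per cell cannot be told apart in these libraries, and the part of these cells in the results was not tested.

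The question of the comparison was which of these mRNAs lay in polysomes at NEBD and which lay outside them. *Opa1* had the higher mean in P, *Mfn2*, *Dnm1l*, *Fis1*, *Mff* and *Polrmt* had the higher mean in NP, and *Mfn1*, *Polg* and *Tfam* had no stable direction. The direction of *Mff* turned when every library was scaled to one median FPKM. *Polg2* was at or near 0 throughout. None of the 9 members that could be tested passed the threshold, an adjusted p below 0.1 in limma, where 0.0210% of 14292 genes passed (3 genes, each higher in NP). Their adjusted p-values in limma ran from 0.525 to 0.975. Without adjustment none of the 9 had a p under 0.05, against 9.95% of all genes tested, and 3 had a p under 0.1 (*Polrmt*, *Dnm1l* and *Opa1*), against 18.1%. The standard errors of the log2 fold changes of these members were 0.41 to 1.09. The confidence interval of each log2 fold change included 0 in this fit, which does not pair libraries.

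**Figure D1:**
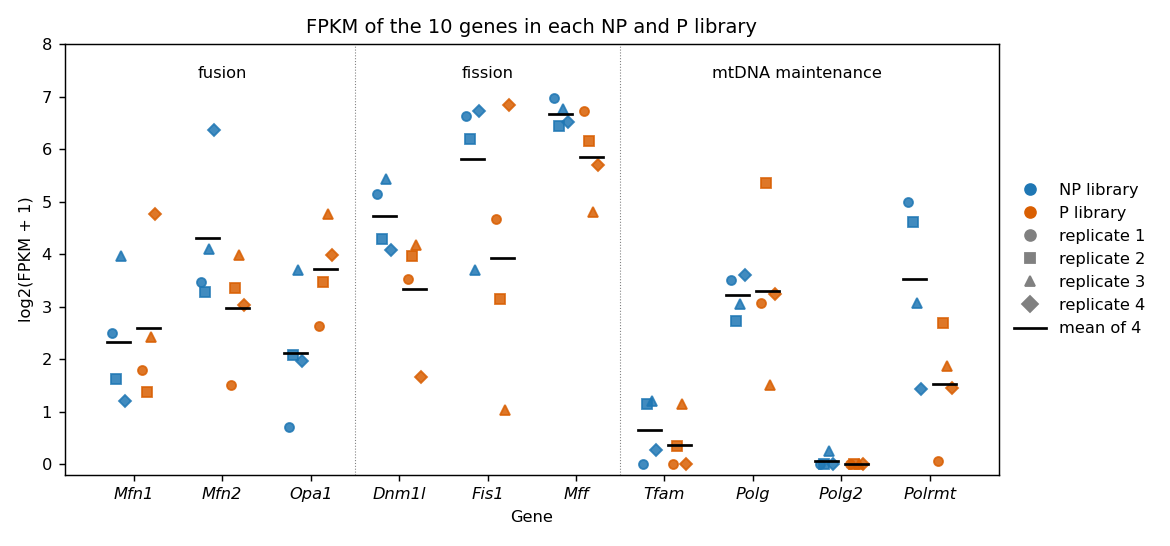
FPKM of the 10 genes in each library, as log2(FPKM + 1), with NP libraries on the left of each gene and P libraries on the right. Symbols mark the 4 replicates and black bars the mean of the log2 values. *Mff* had the highest mean in both datasets, and no gene had all libraries of one dataset above all of the other.

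Among the fusion genes, *Opa1* (chr16:29579334-29654884, plus strand, in GRCm38, with gene bounds as in the deposited table) stood at 0.636, 3.22, 12.0 and 2.91 FPKM in NP replicates 1 to 4. In P it stood at 5.16, 10.1, 26.1 and 14.8 FPKM. Apart from NP replicate 3, at 12.0 FPKM, the NP libraries lay below every P library, and a P library exceeded an NP library in 14 of 16 possible pairs. The mean was 4.68 ± 4.99 FPKM in NP and 14.1 ± 8.95 FPKM in P (SD, n = 4 each), a ratio of 3.00. The log2 fold change of P over NP on FPKM + 1 was 1.60 (SE 0.89, 95% confidence interval -0.32 to 3.51, adjusted p = 0.545 in limma). All 14292 genes had a median of -0.39, and 99.1% of them had a smaller or equal log2 fold change than *Opa1*. The direction was kept under every alternative run, with log2 fold changes of 1.13 to 2.77. Without NP replicate 3 the ratio of means was 6.23 and the datasets did not overlap, as for 9.32% of all genes in that setting. The estimated reads of *Opa1* were 909 over the NP libraries and 1673 over the P libraries, with 16 reads in NP replicate 1.

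*Mfn1* (chr3:32529465-32579239, plus strand) had 4.62, 2.09, 14.6 and 1.29 FPKM in NP and 2.49, 1.58, 4.34 and 26.0 FPKM in P. The datasets overlapped almost fully, and P replicate 4 stood far above the other P libraries. The mean was 5.65 ± 6.14 in NP and 8.60 ± 11.6 FPKM in P, and the log2 fold change was 0.27 (SE 1.0, interval -1.89 to 2.42, adjusted p = 0.915 in limma). Its ratio of P over NP was 1.52, turned to 0.496 without P replicate 4, and became 3.23 without NP replicate 3.

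*Mfn2* (chr4:147873599-147904704, minus strand) had 10.0, 8.74, 16.1 and 81.7 FPKM in NP and 1.84, 9.25, 14.7 and 7.19 FPKM in P. NP replicate 4 held 3221 of the 4053 estimated NP reads, and the other NP libraries, at 8.74 to 16.1 FPKM, lay near the upper P libraries. The mean was 29.1 ± 35.2 in NP and 8.25 ± 5.33 FPKM in P, and the log2 fold change was -1.33 (SE 0.88, interval -3.22 to 0.55, adjusted p = 0.610 in limma). The ratio of NP over P was 3.53 with all libraries and 1.41 without NP replicate 4. With one median FPKM per library the log2 fold change of *Mfn2* was -0.10.

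Within a library, ratios of 2 genes do not depend on the scaling between libraries. *Mfn1* was below *Mfn2* in 4 of 4 NP libraries, and above it in P replicates 1 and 4, 2 of 4 P libraries. The log2 ratio of *Mfn1* to *Mfn2* spanned -5.87 to -0.14 over the NP libraries and -2.47 to 1.84 over the P libraries, so the ranges overlapped.

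Of the fission genes, *Dnm1l* (chr16:16312235-16359030, minus strand) had 34.2, 18.6, 42.1 and 16.0 FPKM in NP. It had 10.5, 14.6, 17.1 and 2.18 FPKM in P. The datasets met only in NP replicate 4 and P replicate 3, and P exceeded NP in 1 of 16 pairs. The mean was 27.7 ± 12.5 FPKM in NP and 11.1 ± 6.53 FPKM in P, a ratio of NP over P of 2.5. The log2 fold change was -1.40 (SE 0.76, interval -3.03 to 0.23, adjusted p = 0.537 in limma). It was below 0 in every alternative run, from -1.68 to -0.19, the latter with one median FPKM per library. Without NP replicate 4 or without P replicate 3 the datasets did not overlap, as for 11.0% and 10.1% of all genes in those settings. An antisense gene on the other strand, *Gm49521*, shares 243 exon bases with *Dnm1l*, and the counting is not stated to use strand, so reads there cannot be told apart.

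*Mff* (chr1:82724890-82752394, plus strand), a receptor for *Dnm1l* on the outer membrane, had the highest mean FPKM of the members in both datasets. *Mff* was above *Fis1*, the next member by mean, in 3 of 4 libraries of each dataset. It had 125, 85.6, 108 and 90.8 FPKM in NP and 105, 69.8, 26.7 and 50.9 FPKM in P. Its NP libraries were the most even of any member above 0 in all 4, with a highest value of 1.46 times the lowest, against 3.93 times in P. Only P replicate 1 reached into the NP range. The mean was 102 ± 17.8 FPKM in NP and 63.1 ± 33.0 FPKM in P, and the log2 fold change of -0.83 (SE 0.58, interval -2.08 to 0.41, adjusted p = 0.636 in limma) became 0.49 with one median FPKM per library. Without P replicate 1 the datasets did not overlap, as for 12.1% of all genes in that setting. Ranked among the genes tested in each library, *Mff* stood at the percentiles 90.6 to 94.2 of the NP libraries and 82.0 to 92.7 of the P libraries. *C430014B12Rik*, on the other strand, shares 195 exon bases with it.

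*Fis1* (chr5:136953275-136966234, plus strand) had 97.8, 71.8, 12.0 and 105 FPKM in NP and 24.6, 7.83, 1.05 and 114 FPKM in P. Its P libraries spanned 109-fold, from 8 estimated reads in P replicate 3 to 524 in P replicate 4, which was also the highest of all 8 libraries. The mean was 71.6 ± 42.2 FPKM in NP and 36.9 ± 52.4 FPKM in P. The log2 fold change was -1.88 (SE 1.09, interval -4.23 to 0.46, adjusted p = 0.561 in limma). The ratio of NP over P was 1.94, and 6.42 without P replicate 4. With one median FPKM per library the log2 fold change of *Fis1* was -0.69. *Fis1* was below *Dnm1l* in NP replicate 3 and in P replicates 2 and 3, and above it in the other libraries.

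The summed FPKM of the 3 fission genes was 202 ± 42.3 in NP (162 to 257) and 111 ± 54.0 in P (44.9 to 167). The summed FPKM of the 3 fusion genes was 39.5 ± 33.6 in NP (14.1 to 85.9) and 30.9 ± 18.7 in P (9.49 to 48.0). Both sums overlapped between the datasets. Transcripts of the fission genes therefore exceeded those of the fusion genes in 4 of 4 NP libraries and in 3 of 4 P libraries. In P replicate 3 the sums were nearly equal, at 45.2 FPKM for fusion and 44.9 FPKM for fission. The log2 ratio of the fusion sum to the fission sum was -2.73 ± 1.33 in NP and -1.95 ± 1.59 in P (SD, n = 4), a difference of 0.78 that is smaller than either spread.

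**Figure D2:**
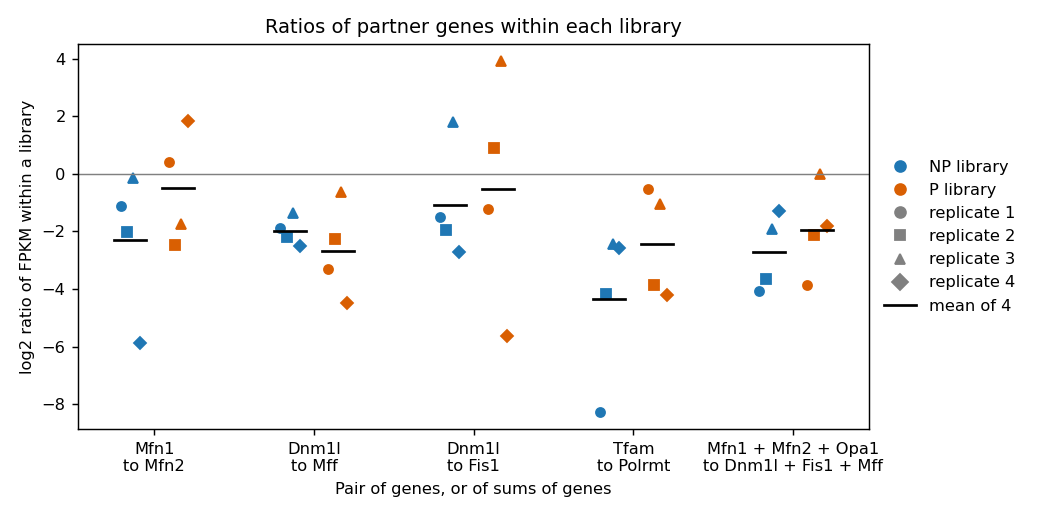
Log2 ratio of FPKM between partner genes, or between sums of genes, within each library, with 0.1 added to both FPKM values. Points are libraries (NP and P side by side) and black bars are means of 4. The NP and P libraries overlap for every ratio, and the fusion sum lay below the fission sum in all libraries but P replicate 3, where the ratio was 0.01.

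Among the genes of mtDNA maintenance, *Polrmt* (chr10:79736123-79746581, minus strand), the mitochondrial RNA polymerase, had 30.6, 23.5, 7.42 and 1.71 FPKM in NP. It had 0.0454, 5.46, 2.64 and 1.75 FPKM in P. NP replicates 1 to 3 were higher than any P library, while NP replicate 4 lay below 3 of the 4 P libraries. The mean was 15.8 ± 13.5 FPKM in NP and 2.47 ± 2.26 FPKM in P, a ratio of NP over P of 6.39, the largest of the members tested. The log2 fold change was -2.01 (SE 1.0, interval -4.16 to 0.15, adjusted p = 0.525 in limma). It stayed below 0 in every alternative run, from -2.81 to -0.91. The lowest value rests on 1 estimated read in P replicate 1, and the P libraries together held 160 reads against 915 in NP. Without P replicate 2 the ratio was 10.7, and without NP replicate 4 the datasets did not overlap, as for 11.0% of all genes in that setting.

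*Polg* (chr7:79448791-79466362, minus strand), the catalytic subunit of the mtDNA polymerase, had 10.4, 5.62, 7.27 and 11.2 FPKM in NP. It had 7.37, 40.02, 1.84 and 8.51 FPKM in P. NP libraries were close together, and P held both the highest and the lowest value. The mean was 8.64 ± 2.64 FPKM in NP and 14.4 ± 17.3 FPKM in P, and the log2 fold change was 0.07 (SE 0.88, interval -1.82 to 1.96, adjusted p = 0.975 in limma). The ratio of P over NP was 1.67 with P replicate 2 and 0.684 without it. *Fanci*, a protein-coding gene on the other strand, shares 858 GENCODE exon bases with *Polg*, more than any other member shares with a neighbour.

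*Polg2* (chr11:106768253-106779537, minus strand), the accessory subunit, was listed at 0 in 7 of 8 libraries and at 0.189 FPKM in NP replicate 3, which is 6 estimated reads. It did not reach a mean of 0.1 FPKM in either dataset and was not tested. *Tfam* (chr10:71225464-71238280, minus strand) was also low. It had 0, 1.21, 1.3 and 0.208 FPKM in NP and 0, 0.281, 1.22 and 0 FPKM in P. The NP libraries together held 56 estimated reads and the P libraries 28. The log2 fold change of *Tfam* was -0.28 (SE 0.41, interval -1.16 to 0.61, adjusted p = 0.779 in limma), and it turned to 0.29 with quantile normalization and to 0.11 with one median FPKM per library. *Tfam* was below *Polrmt* in all 8 libraries. With so few estimated reads, a difference of *Tfam* or *Polg2* between the datasets cannot be judged.

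By mean FPKM the order in NP was *Mff*, *Fis1*, *Mfn2*, *Dnm1l*, *Polrmt*, *Polg*, *Mfn1*, *Opa1*, *Tfam* and *Polg2*. In P the order was *Mff*, *Fis1*, *Polg*, *Opa1*, *Dnm1l*, *Mfn1*, *Mfn2*, *Polrmt*, *Tfam* and *Polg2*. Both ends of the order were shared, with *Mff* and *Fis1* at the top and *Tfam* and *Polg2* at the bottom, and *Opa1* stood below *Mfn1*, *Polg* and *Polrmt* in NP but above *Dnm1l*, *Mfn1* and *Mfn2* in P. No neighbouring genes in either order had separate ranges over the 4 libraries.

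**Figure D3:**
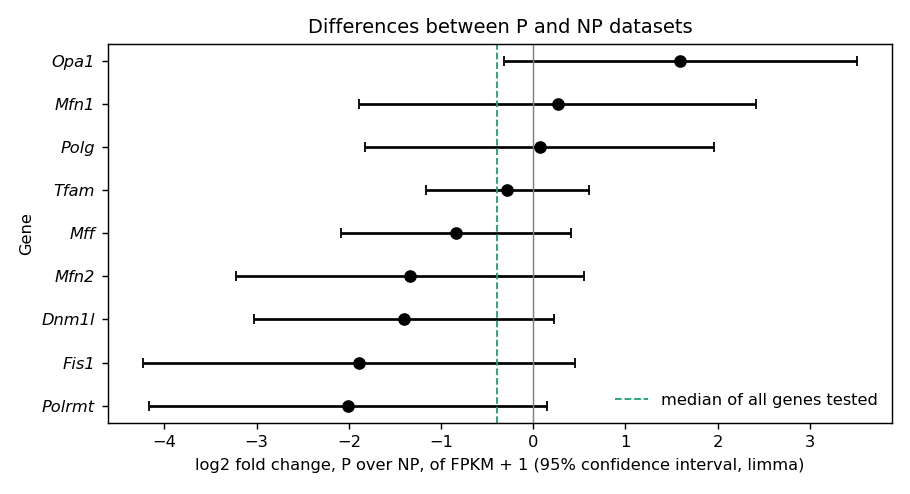
Log2 fold change of P over NP on FPKM + 1 for the 9 genes tested, with 95% confidence intervals from limma. The dashed line is the median of all 14292 genes tested, -0.39, and every interval includes 0.

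As a set, the 9 members tested had a median log2 fold change of -0.83, against -0.39 over all genes. Of these, 6 were below 0 and 3 above, where 71.4% of all genes were below 0. With one median FPKM per library 4 were below 0 and 5 above, and the medians were 0.11 for the members and 0.21 for all genes. Relative to the median of all genes, *Opa1* was higher in P by 1.99, and *Polrmt*, *Fis1*, *Dnm1l* and *Mfn2* had values of -1.62, -1.49, -1.01 and -0.94 on the log2 scale. By ratio of mean FPKM, 3 members were more than 2-fold higher in NP (*Mfn2*, *Dnm1l* and *Polrmt*), against 40.6% of all genes, and *Opa1* was more than 2-fold higher in P, against 16.9%. No member had libraries that did not overlap, against 6.28% of all genes. Each library was scaled to its own reads, so these values are shares of a pool and not numbers of mRNA molecules.

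**Figure D4:**
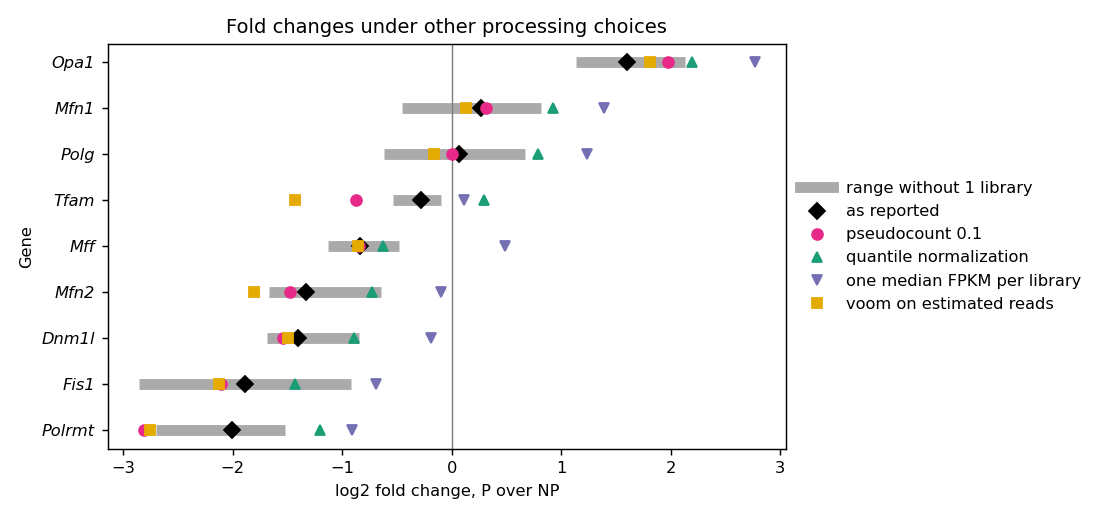
Log2 fold change of P over NP for the 9 genes under the reported settings and under other choices, the grey bar giving the range when 1 library is left out. *Opa1* stays above 0 and *Mfn2*, *Dnm1l*, *Fis1* and *Polrmt* stay below 0 throughout, while the other genes cross 0.

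Translation of stored mRNAs in maturing oocytes is known to depend in part on cytoplasmic polyadenylation elements (CPEs), U-rich motifs of the 3′ UTR that are bound by CPEB. The letters TTTTAT and TTTTAAT were searched on the transcript strand in the 3′ UTR of 1 annotated GENCODE transcript per gene. Of the 10 members, 5 held at least 1 match, against 54.5% of 20993 protein-coding genes. *Opa1* had 6 matches in 3141 bases, *Mfn1* had 4 in 2098, *Polg* had 3 in 3730, *Dnm1l* had 2 in 1754 and *Tfam* had 1 in 3095. *Mfn2*, *Fis1*, *Mff*, *Polg2* and *Polrmt* had none, in 3′ UTRs of 1790, 220, 674, 53 and 104 bases. The GENCODE gene model of *Polg* runs to position 79446231, past the bound in the deposited table at 79448791, and only 1 of its 3 matches lay wholly inside the latter. Per kb of 3′ UTR, *Opa1* and *Mfn1* both had 1.91 matches and *Dnm1l* had 1.14, against 1.35 over all 3′ UTRs. Matches of *Opa1* are shown because it was the member with the highest P over NP ratio, and those of *Dnm1l* as the fission gene that holds any. The 30-base windows read 5′ to 3′ on the transcript strand, with the match in capitals. The last *Opa1* window shown also contains the TTTTAAT match, in lower case.
Opa1, chr16:29652814-29652843, plus strand: atctgccaccttTTTTATtaaggctttact
Opa1, chr16:29652877-29652906, plus strand: atttacagttaaTTTTATaaccagtttcct
Opa1, chr16:29653772-29653801, plus strand: ttttagacaaaaTTTTATttggagaactaa
Opa1, chr16:29654611-29654640, plus strand: gtatcttttacaTTTTATttgttttaatga
Dnm1l, chr16:16313527-16313556, minus strand: cctatccttcatTTTTATagtcttaaaaaa
Dnm1l, chr16:16312724-16312753, minus strand: atgatacattcgTTTTATaaatactaaaat

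CPEs act mostly when they lie near the polyadenylation signal. In the last 100 bases of the transcript, *Mfn1* alone among the 10 members had a match, 64 bases from the annotated end, against 17.8% of 19613 genes with a 3′ UTR of at least 100 bases. *Polg2*, whose 3′ UTR is shorter, was searched over its whole 3′ UTR.
Mfn1, chr3:32579164-32579193, plus strand: tttacaaaacatTTTTATaagtatgcaagc
The last matches of *Opa1* lay 262 and 253 bases from the annotated end, and those of *Dnm1l* 1312 and 509 bases from it. The signal AATAAA or ATTAAA stood in the last 40 bases of 8 members, against 73.5% of those genes, the exceptions being *Opa1* and *Polrmt*. A match of letters is a description of the annotated transcript, and which 3′ end the oocyte used was not measured.

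The other genes of these pathways were taken from 8 lists by function, 107 genes in all, of which 101 were found and 97 tested. None was called by limma, and 8 had an unadjusted p under 0.05, against 9.95% of all genes. In 7 of the 97 the lowest NP value exceeded the highest P value, as in 5.92% of all genes, and in none did all P values exceed those of NP, against 0.357%. Their median log2 fold change was -0.37, close to the -0.39 of all genes.

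**Figure D5:**
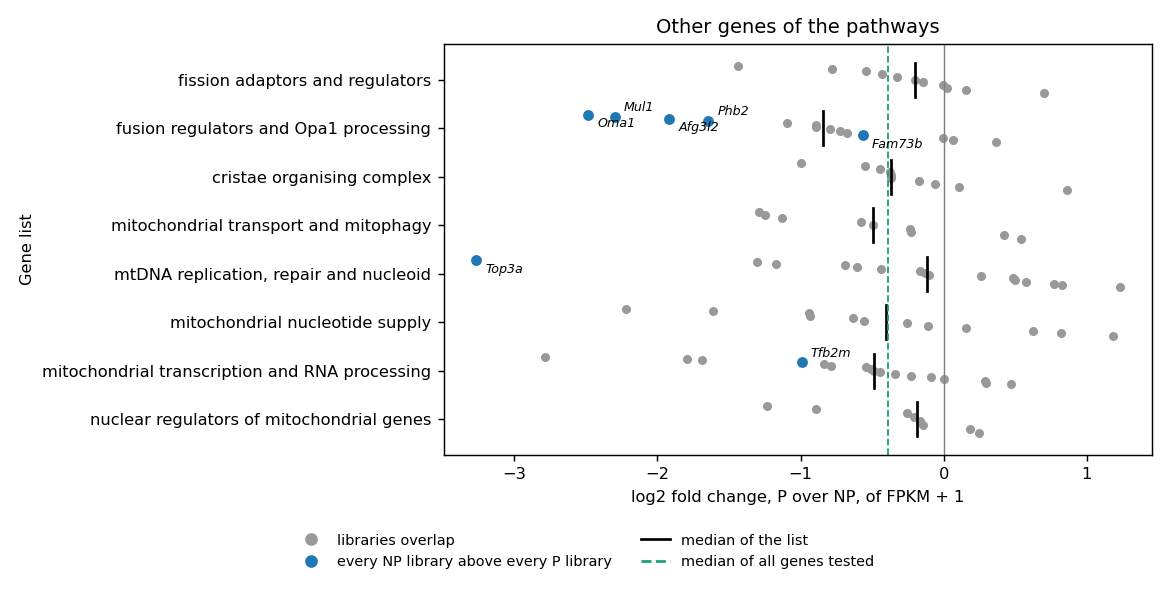
Log2 fold change of P over NP on FPKM + 1 for the 97 tested genes of the 8 lists. Blue points are the 7 genes whose NP libraries all lay above their P libraries. Black bars are list medians and the dashed line is the median of all genes tested.

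Of those 7 genes, 5 were among the 14 tested genes of fusion regulators and Opa1 processing, whose median log2 fold change was -0.84. The lists of mtDNA replication and of mitochondrial transcription held 1 each, and the share over all genes was 5.92%. The lists were chosen with earlier results of these data known, so this count is a description and was not tested. *Oma1*, a protease of the inner membrane that cleaves the Opa1 protein under stress, had 58.6, 73.2, 128 and 32.0 FPKM in NP. It had 8.34, 15.4, 12.9 and 8.01 FPKM in P, and the lowest NP value was still above the highest P value. Its log2 fold change was -2.49 (SE 0.65, adjusted p = 0.376 in limma). *Afg3l2*, a subunit of the m-AAA protease, had a mean of 26.3 ± 8.68 FPKM in NP and 6.61 ± 3.48 FPKM in P, with a log2 fold change of -1.92 (adjusted p = 0.416 in limma). *Mul1*, a ubiquitin ligase of the outer membrane, had 67.2 ± 23.7 and 15.5 ± 13.9 FPKM, and *Phb2*, a prohibitin that scaffolds inner membrane proteases, had 608 ± 335 and 175 ± 51.9 FPKM. *Fam73b* (now *Miga2*), an outer membrane protein that promotes fusion, was at 0.100 to 1.14 FPKM in NP and listed at 0 in all P libraries. Its separation rests on values near the floor, as 1 read in 1 kb of exons was worth 0.132 to 0.770 FPKM in NP. The direction of the 5 genes held in every scaling, though with one median FPKM per library the datasets of *Mul1* and *Phb2* overlapped. *Usp30*, a deubiquitinase of the outer membrane and with *Phb2* the most abundant of this list, had 476 ± 145 FPKM in NP and 242 ± 119 FPKM in P, with overlapping libraries. Of the 14 genes tested in this list, 12 had a log2 fold change below 0 and 2 above, and 1 of the latter was *Phb*, the partner of *Phb2*, at 0.36 (named after its value was seen).

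Of the 16 tested genes of mtDNA replication, repair and the nucleoid, *Top3a*, a topoisomerase that separates replicated mtDNA, had 26.0, 6.69, 40.6 and 51.8 FPKM in NP. It had 1.67, 0.543, 2.59 and 2.60 FPKM in P, with a log2 fold change of -3.27 (SE 0.85, adjusted p = 0.376 in limma). Its libraries overlapped under quantile normalization and with one median FPKM per library. The most abundant genes of this list were *Lonp1*, the matrix protease that degrades Tfam protein, and *Rnaseh1*, which removes RNA primers. *Lonp1* had 156 ± 106 FPKM in NP and 276 ± 293 FPKM in P, and *Rnaseh1* had 52.2 to 106 and 22.0 to 559 FPKM, both with overlapping libraries. In transcription and RNA processing, *Tfb2m*, which opens mtDNA promoters together with Tfam and Polrmt, stood at 0.559, 1.65, 1.96 and 0.376 FPKM in NP and was listed at 0 in 3 of 4 P libraries, with 0.076 in the other. These *Tfb2m* values are low too, beside 0.132 to 0.770 FPKM for 1 read in 1 kb of exons in NP. *Mtpap*, the mitochondrial poly(A) polymerase, and *Supv3l1*, an RNA helicase, were the most abundant genes of that list. They had 98.6 ± 37.8 and 158 ± 68.0 FPKM in NP, and 135 ± 75.0 and 87.1 ± 92.5 FPKM in P.

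The other lists had no gene with separate libraries. Among fission adaptors and regulators, *Spire1*, an actin nucleator, had 244 ± 31.8 FPKM in NP and 180 ± 70.8 FPKM in P. *Akap1*, an anchor of protein kinase A on the outer membrane, had 87.6 ± 24.2 and 158 ± 86.9 FPKM. In the complex that organises cristae, *Dnajc11* had 266 ± 93.0 and 285 ± 162 FPKM and *Apoo* had 72.4 ± 33.4 and 57.3 ± 26.9 FPKM. Of the transport genes, *Rhot2*, an outer membrane GTPase, had 61.4 ± 39.8 and 41.6 ± 50.6 FPKM. *Trak1*, a motor adaptor, had 97.5 ± 37.7 and 41.3 ± 19.4 FPKM, a log2 fold change of -1.25 (adjusted p = 0.503 in limma). The mitochondrial deoxynucleoside kinases *Tk2* and *Dguok* had 124 ± 27.4 and 39.4 ± 29.2 FPKM in NP, and 150 ± 134 and 80.5 ± 68.0 FPKM in P. The transcription factors *Nrf1* and *Yy1* had 30.4 ± 7.71 and 10.0 ± 11.3 FPKM in NP, and 28.6 ± 14.8 and 8.46 ± 7.8 FPKM in P. All of these genes had NP and P libraries that overlapped, and none was called by limma.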

How the data were processed

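The deposited table of gene values was used. Per the labels and the methods of the study, the authors used Trim Galore 0.4.1 for trimming and HISAT2 2.0.5 for mapping, with GRCm38 as the genome, and computed FPKM per gene and library in Seqmonk. The FPKM were not log-transformed. The authors' DESeq2 table (fold changes and p-values) and their table of mean FPKM and ratios were not used.

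Differences were tested with limma 3.58.1 in R 4.3.3 (lmFit, eBayes with a trend, 2-sided) on log2(FPKM + 1). Genes entered if either dataset had a mean of more than 0.1 FPKM, 14292 in all, and p-values were adjusted over them by Benjamini-Hochberg with a threshold of 0.1. FPKM are not counts, so this test replaced a count model. Ratios of mean FPKM had 0.0001 added and ratios within libraries 0.1. The scripts were tested on simulated data. In the limma simulation the spread was smaller than in these libraries and the planted changes were large. It therefore does not show which differences could be detected here.

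Reads per gene were estimated from the steps of the FPKM values. For *Mfn1*, *Dnm1l*, *Mff* and *Polg* the annotated exon length gave no whole reads, and the shortest length that did was used. The amplified cDNA has no molecular identifiers, so reads are not independent molecules.

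Members and lists were chosen with earlier results of these data known. Genes named besides the members were those of the lists that were called or whose datasets did not overlap, and the 2 most abundant of each list. *Park2*, *Mgme1*, *Mterf1a*, *Mterf1b*, *Slirp* and *Trmt10c* were not matched. CPE matches used GENCODE transcripts of GRCm38. A further sequence window is not reported here.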

Additional observations from a re-analysis of the deposited data

Results flagged for a closer look

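Values that stood apart from the other libraries of their dataset by Dixon's test numbered 3, among 31 groups of 4 values tested. For normally distributed values the test flags about 1 group in 20. FPKM were tested without a log transform, so that rate need not hold here. *Mfn1* in P replicate 4 was at 26.0 FPKM, against 1.58 to 4.34 FPKM in the other P libraries. *Mfn2* in NP replicate 4 was at 81.7 FPKM, against 8.74 to 16.1 FPKM in the other NP libraries. *Polg2* in NP replicate 3 was at 0.189 FPKM, against 0 in the others, and where the other values are all 0 any value above 0 stands apart in this test.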

How the results depend on the processing

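No alternative led to a call of a member or of a listed gene, and 125 of 134 alternative fold changes of members kept their direction. The 9 that turned were *Mfn1* without NP replicate 4 (-0.11) and without P replicate 4 (-0.46), *Mff* with one median FPKM per library (0.49), *Tfam* with quantile normalization (0.29) and one median (0.11), and *Polg* with a pseudocount of 0.1 (-0.0014), without NP replicate 2 (-0.10), without P replicate 2 (-0.62) and with voom (-0.16). Leaving out 1 library gave -0.46 to 0.82 for *Mfn1* and -0.62 to 0.67 for *Polg*. The cause was not tested. Members more than 2-fold higher in P numbered 4 with quantile normalization and 3 with one median, and those higher in NP numbered 2 and 1. All genes had a median log2 fold change of -0.02 and 0.21 in these settings, against -0.39 as reported. The share of all genes beyond 2-fold was not counted there. The median log2 fold change of the members was 0.11 with one median and -1.43 with voom on estimated reads, an alternative chosen after seeing the data, which called 173 of 12811 genes and no member. Over all genes limma called 3, and 0 to 5 under the other alternatives, with 0 under quantile normalization (942 at an unadjusted p under 0.05).

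Leaving out each library in turn gave 0 to 2 members and 7 to 14 listed genes whose datasets did not overlap. Listed genes numbered 11 without NP replicate 3, 14 without P replicate 1 and 12 without P replicate 4. Of all genes, 9.32% did not overlap without NP replicate 3 and 11.0% without NP replicate 4, against 6.28% with every library. The share was 12.1% without P replicate 1 and 10.1% without P replicate 3. It was not counted for the other libraries, so the 12 listed genes without P replicate 4 have no share beside them. Members more than 2-fold higher in NP numbered 3 to 4, and those higher in P 1 to 2 (2 without NP replicate 3 or P replicate 3). The median of the members ran from -0.93 to -0.54. The difference between P and NP in the log2 ratio of *Dnm1l* to *Fis1* ran from -0.90 to 2.28 and that of *Polg* to *Polg2* from -0.37 to 1.09. Libraries with the same number deviated together at 0.0518 to 0.251 over 11374 genes and those with other numbers at -0.135 to 0.136. Each P library correlated best with the NP library of its own number. NP replicate 2, in turn, correlated best with P replicate 1 (0.136, against 0.0518 with P replicate 2). The labels do not state which libraries share a profile, and the reported fit did not pair them. A fit with a replicate block called 1 gene in place of 3 and no member, with *Fis1* the 1 member at an unadjusted p under 0.05 (-1.88, SE 0.69, adjusted p = 0.345 in limma) and a median of the members of -0.83. Between libraries of the same number *Opa1* was higher in P in 4 of 4, and *Dnm1l* and *Mff* were higher in NP in 4 of 4. The values of *Tfam* and *Polg2* rest on few estimated reads, and the cause of their low values was not tested.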
